A study of Aedes aegypti with 6 samples.

Results

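In pupal testes of the yellow fever mosquito, Aedes aegypti, 161 of 12813 measured genes were clearly brighter in the meiotic drive strain T37 than in the non-driving strain RED. They were chosen by 2 measured values. On the log2 scale the dimmest of the 3 T37 arrays had to exceed the brightest of the 3 RED arrays by at least 1, which is a 2-fold distance between the nearest arrays, and the dimmest T37 array had to reach at least 8. This distance is called the gap below. In all, 163 genes met the rule, and the 2 with the widest separation, AAEL002664 and AAEL007339, were left out. Because the rule read the strain difference itself, the gaps, levels and folds of these genes are a description and carry no test.

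Meiotic drive is the passage of a chromosome to more than its Mendelian share of the gametes. In this mosquito the known driver lies with the male-determining locus, acts during male meiosis against the chromosome that lacks that locus, and leaves broods with an excess of sons. Testes of early pupae hold germ cells in and around meiosis together with somatic cells of the organ.

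T37 carries the drive and RED does not, and each strain was represented by 3 extracts of pupal testes, each hybridised to its own 1-colour NimbleGen array. Males of both strains were raised to the early pupa at 26°C in air of 80% humidity, under days of 16 h light and 8 h dark. The free text of the RED samples words them as replicates of T37, whereas their titles, source names and strain fields all give RED, which was used. The sources used here do not give the number of males per extract, or whether the strains share a genetic background apart from the drive. With 1 strain of each kind, the drive and any other difference between the strains cannot be told apart. In whole testes, fewer cells of a type and less RNA per cell cannot be told apart either.

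The deposited intensities had array medians from 1836 to 1985. RED replicate 3 gave the lowest correlation between arrays, with correlations across genes of 0.874 to 0.908 to the other arrays. The other arrays correlated with each other at 0.893 to 0.983, so the ranges overlap. The median difference and the counts of genes are therefore also given without RED replicate 3. So are the differences of 5 members, as examples of those that this array moved by more than 0.5. It moved other members by more than 0.5 too, such as AAEL003429 and AAEL015021. Genes carry identifiers of the AAEL series. None of the sources used here pairs these with names, functions or chromosomes, and 0 of the 12813 were found in the RefSeq table of 19623 genes. Members are therefore described by identifier and level alone, and the labelled tissue could not be checked against testis markers.

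The gap of the 161 genes ran from 1.001 to 3.89 on the log2 scale, with a median of 1.34 and an interquartile range of 1.18 to 1.66. A gap of 1.5 or more was found for 59 of them, of 2 or more for 24 and of 3 or more for 4. The difference between the strain means, T37 minus RED, had a median of 2.01 on the log2 scale, against -0.01 over all genes. As folds, the members ranged from 2.24-fold to 36.1-fold with a median of 4.04-fold. At least 4-fold differences of the means numbered 85, at least 8-fold differences 15 and at least 16-fold differences 2. Most members thus lie near the lower edge of the rule, and a short tail of genes lies far beyond it. Without RED replicate 3 the median difference of the same 161 genes was 1.997, and no array, left out singly, moved it outside 1.99 to 2.13.

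**Figure D1:**
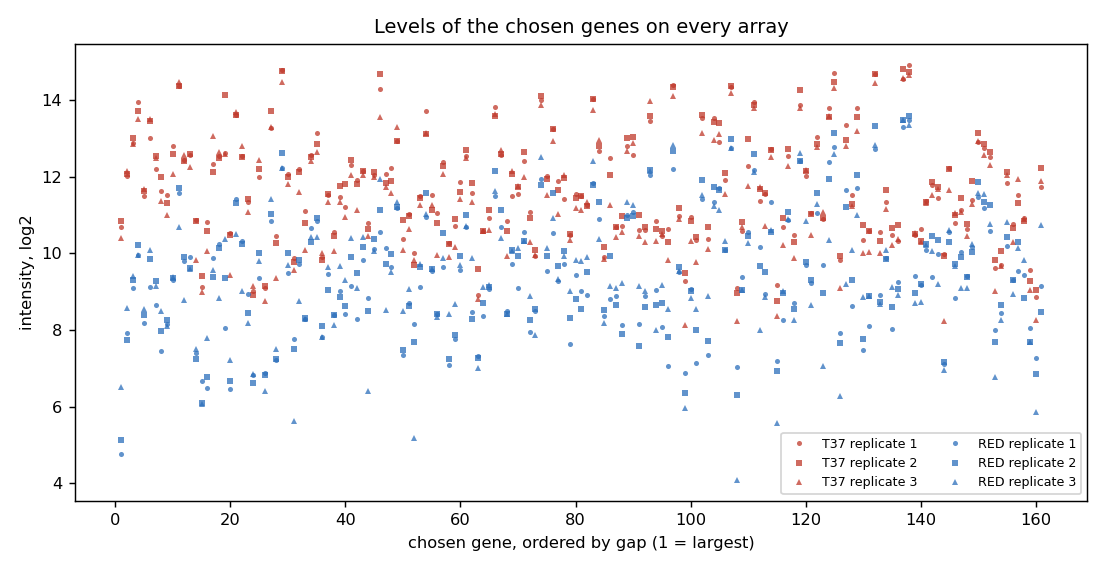
Log2 intensity (vertical axis) of the 161 chosen genes on each of the 6 arrays, with genes ordered along the horizontal axis from the largest gap (1) to the smallest (161). Red symbols are the 3 T37 arrays and blue symbols the 3 RED arrays. Every gene keeps its red symbols above its blue ones, as the rule requires, by 3.89 at the left end and by 1.001 at the right end. The level itself varies widely along the order.

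AAEL015121 had the widest gap, 3.89. Its deposited intensities were 1649, 1831 and 1354 on T37 replicates 1, 2 and 3 and 27.2, 34.9 and 91.0 on RED replicates 1, 2 and 3. All T37 arrays were thus far above the RED arrays, and among the RED arrays replicate 3 was the brightest. The T37 arrays averaged 10.64 ± 0.22 (SD, n = 3) on the log2 scale and the RED arrays 5.47 ± 0.92 (SD, n = 3), which is 36.1-fold. In RED this gene lay at percentiles 0.164 to 5.15 of the arrays, at their dark end, and in T37 at percentiles 43.7 to 49.2. With values under each array's 5th percentile set to that percentile, its log2 difference was 3.45 in place of 5.18. Without RED replicate 3 it was 5.70.

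AAEL004847 was next, with a gap of 3.44 and log2 values of 12.01, 12.08 and 12.16 in T37 against 7.91, 7.75 and 8.57 in RED. Its T37 arrays were nearly level with each other (SD 0.07, n = 3), and the means differed 16.1-fold. It lay at percentiles 7.23 to 18.6 on RED arrays and at percentiles 67.2 to 70.3 on T37 arrays. AAEL007133, also with a gap of 3.44, had intensities of 7556, 8189 and 7410 in T37 and of 548, 635 and 683 in RED. Here both strains were tight, with log2 SDs of 0.08 in T37 and 0.16 in RED (n = 3 each), and the means differed 12.5-fold. AAEL007040 completed the genes with a gap over 3, at 3.29. Its intensities of 15823, 13439 and 11541 in T37 and 999, 1182 and 992 in RED put it near the bright end of the T37 arrays, at percentiles 88.1 to 92.0.

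The 8 genes that followed had gaps of 2.95 to 2.498. AAEL011075 stood at log2 values of 11.49, 11.64 and 11.67 in T37 and 8.17, 8.40 and 8.54 in RED, a 9.38-fold difference. AAEL002507 stood at 13.01, 13.46 and 13.50 against 9.12, 9.86 and 10.07, or 12.5-fold. Both had their lowest RED value on replicate 1. So did AAEL002497, with 12.21, 12.55 and 12.50 in T37 against 8.66, 9.28 and 9.16 in RED, or 10.5-fold. AAEL001793, with 11.63, 11.99 and 11.37 in T37 against 7.46, 7.96 and 8.503 in RED, reached 12.9-fold although its gap, 2.87, was smaller, since its RED arrays spread more widely (SD 0.52, n = 3). In these 4 genes the separation between the strains was several times the spread within either.

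AAEL008380 and AAEL002876 had the steadiest RED values of the 12 genes with the largest gaps, with SDs of 0.08 and 0.04 (n = 3). AAEL008380 stood at 11.52, 11.32 and 10.99 in T37 against 8.16, 8.27 and 8.11 in RED. AAEL002876 stood at 12.81, 12.59 and 12.07 against 9.30, 9.35 and 9.38. In both, T37 replicate 3 was the dimmest T37 array and so set the gap. AAEL008349 and AAEL004822 showed the converse, with tight T37 arrays and RED replicate 3 below the other RED arrays. The intensities of AAEL008349 were 21150, 21112 and 22578 in T37 and 3057, 3319 and 1642 in RED. AAEL004822 had log2 values of 12.43, 12.41 and 12.56 in T37 against 9.79, 9.91 and 8.77 in RED.

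**Figure D2:**
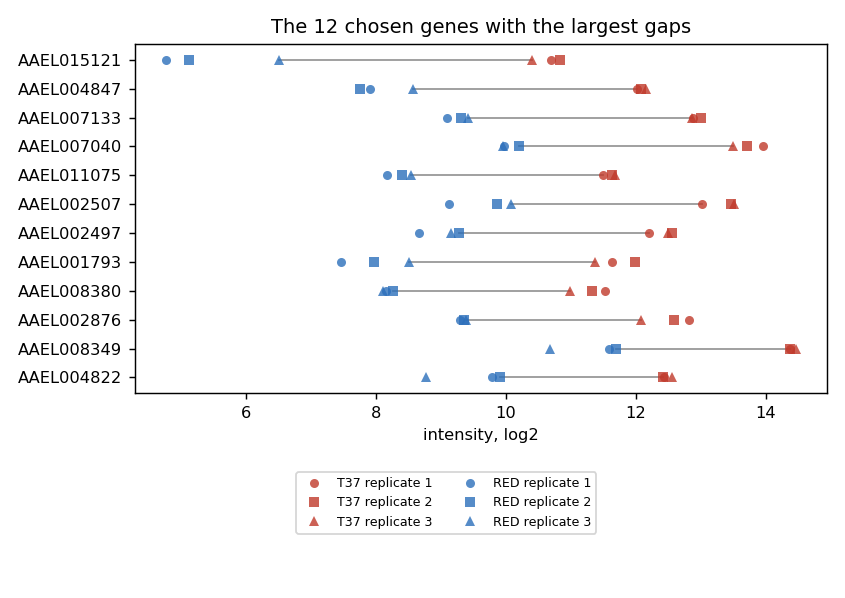
Log2 intensity (horizontal axis) of the 12 chosen genes with the largest gaps, 1 gene per line, with the 3 T37 arrays in red and the 3 RED arrays in blue. Grey lines span the gap, from 3.89 for AAEL015121 to 2.498 for AAEL004822. AAEL015121 has the lowest RED values, and AAEL008349 the highest values in both strains.

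The members covered a wide range of levels. Their T37 means ran from 8.72 to 14.77 on the log2 scale with a median of 11.58, and their RED means from 5.47 to 13.47 with a median of 9.39. Over all genes the corresponding medians were 10.83 and 10.81, so by their medians the members were above the typical gene in T37 and below it in RED. By array, the median member lay at percentiles 57.7 to 62.0 on T37 arrays and 25.7 to 30.2 on RED arrays. On every RED array 123 of the 161, or 76.4%, lay under the array's median, against 42.4% of all genes. Of these 123, 61 lay over it on every T37 array, or 37.9% of the members against 1.38% of all genes. Another 26, or 16.1%, lay over the median on every RED array too, against 42.5% of all genes. The rule asks for T37 above RED by 1 or more, so these shares are in part built in. Above percentile 90 on every T37 array lay 12 members, or 7.45%, near the 8.15% of all genes. With all genes divided into 4 equal classes by RED mean, 71 members fell in the dimmest class, 56 in the next, 27 in the one after and 7 in the brightest. By T37 mean the 4 classes held 6, 50, 63 and 42. Members that were dim in RED had larger folds, with medians of 4.88-fold, 3.98-fold, 3.65-fold and 2.83-fold from the dimmest RED class to the brightest. The rule bounds the T37 level from below and leaves less room for a gap at the bright end, so this order is in part built in.

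**Figure D3:**
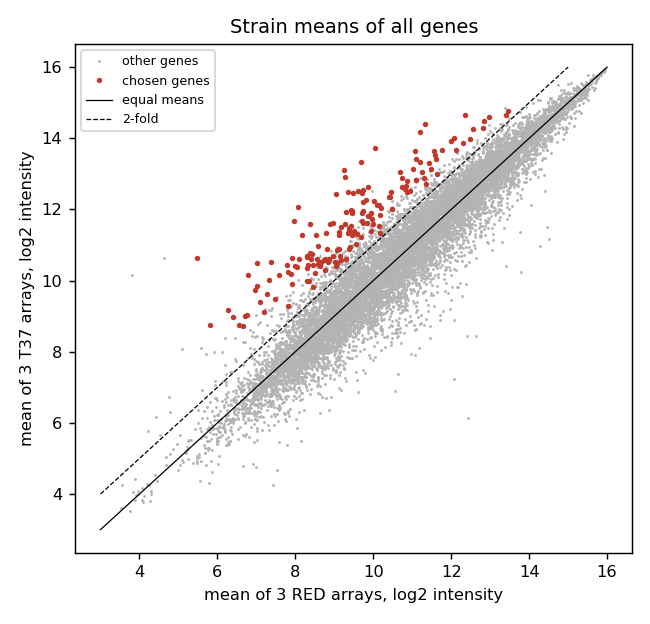
Mean log2 intensity of each gene over the 3 T37 arrays (vertical axis) against its mean over the 3 RED arrays (horizontal axis), with the 161 chosen genes in red and all others in grey. The solid line marks equal means and the dashed line a 2-fold difference. All chosen genes lie above the dashed line, and they are densest at middle levels, around their medians of 9.39 in RED and 11.58 in T37. Grey points above the line include AAEL002664 and AAEL007339 and genes whose arrays lie closer or overlap.

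At the bright end, the 5 members with the highest T37 means were AAEL007333, AAEL007248, AAEL013914, AAEL011786 and AAEL011214, with T37 means of 14.77, 14.67, 14.65, 14.61 and 14.49. AAEL007248 had the widest gap of these, 1.83, with intensities of 27988, 27928 and 22513 in T37 and 4810, 6340 and 4775 in RED, or 4.94-fold. AAEL007333 had intensities of 31012, 27270 and 25801 in T37 and 11417, 12171 and 10451 in RED, which is 2.47-fold. This gene was bright in both strains, at percentiles 86.6 to 88.7 in RED. AAEL013914 was close to it in level and fold, at 2.35-fold. AAEL011786 and AAEL011214 differed 3.13-fold and 3.15-fold. The SDs of these 5 genes were at most 0.32 on the log2 scale in either strain (n = 3). The highest intensity in the table was 64205, so none of them lay at the top of the scale.

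At the dim end, AAEL009286, AAEL009543, AAEL011174, AAEL004401 and AAEL004696 had the lowest T37 means, 8.72 to 9.002. Their RED values were among the darkest of the arrays. These 5 and AAEL012638 were the 6 members that lay under the 5th percentile on every RED array, or 3.73% against 2.22% of all genes. AAEL012638 separated best, with 9.12, 9.40 and 8.99 in T37 against 6.68, 6.09 and 6.06 in RED and a gap of 2.30. AAEL009543 was the least steady, with 9.09, 8.96 and 8.24 in T37 against 7.03, 6.30 and 4.09 in RED. On some RED array 25 members lay under the 5th percentile, or 15.5% against 8.19% of all genes, AAEL015121 among them. Detection calls were not used here, so it is not shown that these 25 were above background in RED. Their folds depend on the darkest values. With values under the 5th percentile set to it, the log2 difference of AAEL012638 was 1.98 in place of 2.90, and that of AAEL009543 was 1.58 in place of 2.96.

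In 5 members, AAEL004847, AAEL011075, AAEL001793, AAEL008380 and AAEL012403, the shift crossed the array from under percentile 25 on every RED array to over the median on every T37 array. No other gene in the table did so, but the rule settles this. The medians of the T37 arrays ran from 10.82 to 10.90, and percentile 25 of the RED arrays from 9.11 to 9.25. A gene that crosses so far thus has a gap over 1 and a lowest T37 value over 8. Only members, AAEL002664 and AAEL007339 could do so. The first 4 of the 5 members are among those already described. AAEL012403 stood at 11.33, 11.43 and 11.09 in T37 against 8.93, 8.44 and 8.18 in RED, with a gap of 2.16.

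The spread between replicates differed from member to member. The median SD was 0.21 in T37 and 0.34 in RED (n = 3 arrays for each gene), against 0.26 and 0.35 over all genes. The rule reads the dimmest T37 and the brightest RED array and so favours small spreads, which bears on this comparison. RED had the larger SD in 114 of the 161, or 70.8%, close to the 67.3% of all genes. The steadiest T37 values were those of AAEL004019, at 10.59 on each of the 3 arrays, AAEL005786, at 10.49, 10.51 and 10.53, and AAEL001095, at 11.37, 11.35 and 11.31. AAEL001095 was also steady in RED, with 10.09, 10.23 and 10.21, and was the only member with SDs under 0.1 in both strains. Its 2.24-fold difference was the smallest among the members. The least steady T37 values were those of AAEL014793, AAEL011169 and AAEL004401. AAEL014793 stood at 9.98 and 9.94 on T37 replicates 1 and 2 but at 8.24 on replicate 3, against 7.12, 7.17 and 6.97 in RED. AAEL011169 stood at 12.63, 14.13 and 12.59 in T37 and at 8.05, 9.36 and 10.37 in RED, so that its 14.5-fold difference had a gap of only 2.22.

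Single arrays set the gap unequally. T37 replicate 3 was the dimmest T37 array in 116 members, or 72.0%, replicate 1 in 29 and replicate 2 in 16. Over all genes T37 replicate 3 was the dimmest in 47.8%. It lay more than 0.5 below the mean of the other T37 arrays in 38 members and more than 0.5 above it in 2, whereas among all genes the shares were 17.0% below and 21.1% above. Its median offset was -0.28 in the members and -0.07 over all genes. Among the RED arrays, replicate 3 was the brightest in 64 members, replicate 2 in 55 and replicate 1 in 42. The share for RED replicate 3, 39.8%, was near the 39.2% of all genes.

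RED replicate 3 departed from the other RED arrays in both directions, among the members as among all genes. It lay more than 1 below the mean of RED replicates 1 and 2 in 17 members and more than 1 above it in another 17, or 10.6% each, against 14.1% below and 9.59% above over all genes. Its median offset in the members was -0.05. At the low extreme were AAEL005299, with 8.16, 7.68 and 5.18 on RED replicates 1, 2 and 3, and AAEL009543. At the high extreme were AAEL005644, with 9.14, 8.47 and 10.74, and AAEL011169. AAEL010335 and AAEL004830 followed the low pattern and were close to each other on every array, within 0.19 on the log2 scale. AAEL010335 stood at 12.55, 12.48 and 12.66 in T37 and at 10.24, 10.14 and 8.84 in RED, and AAEL004830 at 12.54, 12.51 and 12.80 in T37 and at 10.33, 10.24 and 9.02 in RED. Without RED replicate 3 the log2 difference of AAEL009543 was 2.10 in place of 2.96 and that of AAEL005299 was 1.93 in place of 2.84, whereas that of AAEL005644 was 3.14 in place of 2.498 and that of AAEL011169 was 4.41 in place of 3.86. These examples were chosen after their values were seen.

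The rule was also applied to 5 arrays at a time, and the remaining array, which that choice had not used, was read on the genes so chosen. Each such list holds the 161 members by construction, because leaving out an array can only widen a gap. The genes that keep a distance of 1 or more on the left-out array are these same 161, apart from the minimum level, so that number is fixed and only the length of the list can vary. The 161 also lie on the strain's side of that array by the rule. Only the other genes of a list could fall on either side, so the shares on that side are in part built in. With T37 replicate 2 left out, 170 genes were chosen, and all 170 lay above every RED array on it. With T37 replicate 1 left out, 174 of 176 genes did so. With RED replicates 1 and 2 left out in turn, all 179 and all 213 genes lay below every T37 array on the array left out. The 161 thus made up 75.6% to 94.7% of the lists from which 1 of these 4 arrays was left out. Over all genes the share on the strain's side was 29.4% to 35.6% on these arrays, and by 1 or more it was 2.79% to 4.09%.

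The lists were longest without the replicates numbered 3. Without T37 replicate 3 the rule chose 344 genes, of which 337, or 98.0%, lay above every RED array on it, with a median distance of 0.93. The distance was 1 or more for 162, or 47.1%, which are the 161 members and 1 gene under the minimum level on that array. Without RED replicate 3 the rule chose 262 genes, of which 239, or 91.2%, lay below every T37 array on it, and the 161 members made up 61.5%. The other 23 genes overlapped with T37 on RED replicate 3. Among all genes 21.8% and 41.6% lay on the strain's side of these arrays. Genes of 1 array share that array's RNA and scaling and are not replicates of each other, so these shares describe arrays and carry no p-value. Without both replicates numbered 3 the rule chose 526 genes.

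**Figure D4:**
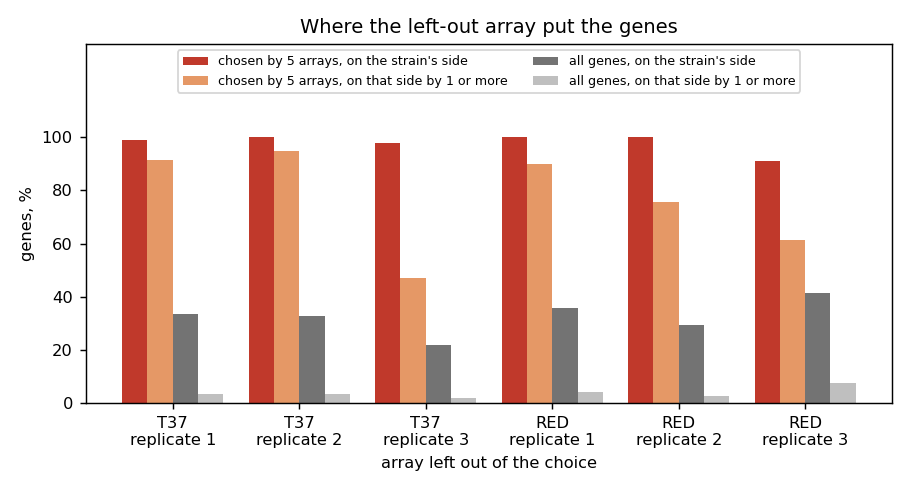
Share of genes in % (vertical axis, from 0) that lay on their strain's side on the array left out of the choice (horizontal axis), for genes chosen by the other 5 arrays (dark red on the strain's side, orange by 1 or more on the log2 scale) and for all genes (dark and light grey). Every list holds the 161 members, which lie on that side by the rule. On the side alone the chosen genes reach 91.2% to 100%, which is thus in part built in. By 1 or more they range from 47.1% on T37 replicate 3 to 94.7% on T37 replicate 2, and these shares differ only through the number of genes chosen, since the genes that reach 1 are the 161 members throughout (and 1 more on T37 replicate 3).

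Fitted with limma over all 12813 genes, 149 of the 161 members were called higher in T37 at an adjusted p under 0.05, beside 2.44% of all genes. The rule used the same contrast, so nothing is read from that share. The 12 members that were not called had gaps of 1.001 to 1.78 and a median SD in RED of 1.17, against 0.33 in those called (n = 3 arrays for each gene). In 10 of the 12, RED replicate 3 lay more than 1 below the other RED arrays. AAEL003429 had the widest gap of the 12, with 9.87, 9.77 and 9.55 in T37 against 7.78, 7.51 and 5.62 in RED. The exceptions were AAEL014793, where the spread was in T37, and AAEL005644, where RED replicate 3 was the brightest RED array.

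The edges of the rule fell within a continuous distribution. The 3 members with the smallest gaps were AAEL014766, AAEL009286 and AAEL005644, with gaps of 1.003, 1.002 and 1.001. Just outside, AAEL004018, AAEL010415 and AAEL001390 had gaps of 0.99. AAEL001390 stood at 11.47, 11.39 and 11.53 in T37 against 10.17, 10.37 and 10.40 in RED, much like AAEL001095 inside. The minimum level kept out 4 genes with a gap of 1 or more. The nearest of these were AAEL003981, whose lowest T37 value was 7.99, AAEL006524 at 7.71 and AAEL001319 at 7.66, all 3 dim on RED arrays, with RED means of 6.18, 5.72 and 5.92.

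The mirror rule, with RED above T37 by the same gap and minimum level, was met by 133 genes, against 163 with T37 above RED. At a minimum gap of 0.5 the numbers were 476 with T37 above RED and 414 with RED above T37, at 1.5 they were 61 and 55, and at 2 they were 26 and 18. At 3.5 the order turned, with 3 genes against 4. Genes with clear separation were thus found in both directions at each minimum, and the difference between the directions was not tested.

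**Figure D5:**
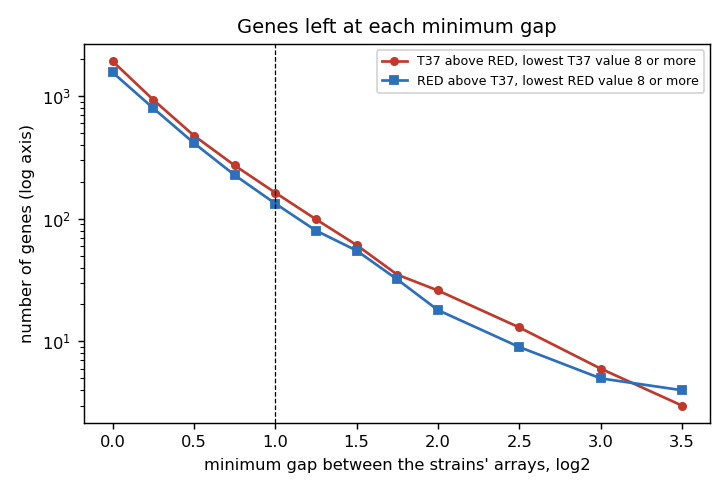
Number of genes (vertical log axis) whose strains are separated by at least the gap on the horizontal axis (log2), with T37 above RED in red and RED above T37 in blue, and with the lowest value of the brighter strain at 8 or more. The dashed line marks the minimum gap of 1, where the counts are 163, including AAEL002664 and AAEL007339, and 133.

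Beyond the values used by the rule, the files give only the identifiers and the transcripts. Of the 161 members, 1 had several transcripts on the array, or 0.621%, against 3.95% of all genes. This gene, AAEL001551, has transcripts RA and RC, whose values were alike. On the log2 scale RA averaged 10.64 ± 0.38 (SD, n = 3) over the T37 arrays, against 8.24 ± 0.47 (SD, n = 3) over the RED arrays. RC averaged 10.55 ± 0.39 (SD, n = 3) over the T37 arrays, against 7.95 ± 0.52 (SD, n = 3) over the RED arrays. The other 160 members rest on a single summarised value per array, so no second value was at hand to set beside the first.

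The identifiers of the members were spread over the whole series of numbers. In bins of 1000 identifiers the members made up 0.587% to 2.30% of the genes measured, with the highest share, 18 of 781, between AAEL014000 and AAEL014999 and the lowest, 5 of 852, between AAEL009000 and AAEL009999. Identifier order is not an established order along the genome, and no test of these shares was made. In 3 cases both genes of a consecutive pair of identifiers were members, among 10675 consecutive pairs measured. They were AAEL001551 with AAEL001552, AAEL011119 with AAEL011120, and AAEL011975 with AAEL011976. Whether 3 is more than the share of members among all genes would give was not tested. The members AAEL011119 and AAEL011120 were steady in RED, at 12.12 ± 0.07 and 11.25 ± 0.08 (SD, n = 3), and were 2.95-fold and 3.48-fold higher in T37, whereas the preceding identifiers AAEL011117 and AAEL011118 differed 1.28-fold and 1.30-fold.

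In a further 2 cases members lay 2 identifiers apart with a gene between them that was not a member. AAEL012573 and AAEL012575 were alike on every array, within 0.30 on the log2 scale. AAEL012573 stood at 10.70, 10.98 and 10.56 in T37 and 8.12, 7.89 and 9.24 in RED, and AAEL012575 at 10.60, 10.99 and 10.45 in T37 and 8.15, 7.59 and 9.14 in RED. Of the 12880 pairs that the 161 members form, 33 were within 0.31 on every array, a limit set after the values were seen so as to hold this pair. AAEL012574, between them, overlapped between the strains, with 9.51, 8.31 and 10.88 in T37 against 8.93, 9.57 and 11.02 in RED. AAEL013914 and AAEL013916 differed widely in level, with T37 means of 14.65 and 10.51. For identifiers next to a member that were not themselves members, 43 of 261, or 16.5%, had T37 above RED without overlap, near the 15.4% of all genes, and their median difference was 0.03 on the log2 scale.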

How the data were processed

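RNA was hybridised to 6 1-colour NimbleGen arrays. The deposited values are intensities on a linear scale, 1 per transcript and array, processed by the authors with RMA (background correction, scaling between arrays, probe summary), per the submitters' processing notes. The version of this software, the array design and the annotation release were not given in the sources used here. Because RMA equalises arrays, a shift of all genes in a strain would not be seen. Intensities of 13471 transcripts were converted to log2 and averaged per gene (identifier before "-R"), giving 12813 genes. The rule asked for a gap of at least 1 and a lowest T37 value of at least 8, without 2 genes. Its cap of 300 genes was not reached by the members. The cap was not applied to the lists from fewer arrays or other settings. The members and the lists were chosen with earlier results of these data known. limma 3.58.1 in R 4.3.3 (lmFit, eBayes, two-sided, no covariate, Benjamini-Hochberg over all genes) served as background. It was tested only on simulated data with independent noise and with shifts larger than the median difference of the members. That test does not show how it performs on these arrays. A permutation test of 3 arrays against 3 cannot go below p = 0.1. Replicates came from separate extracts, and their number limits the precision. Named genes were the 12 largest gaps, the extremes of T37 mean, RED mean and T37 SD, genes at the edges of the rule and those with several transcripts; others named were chosen after their values were seen. Planned groups by product words were not formed, since identifiers carried no names.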

Additional observations from a re-analysis of the deposited data

How the results depend on the processing

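The 161 genes became 156 to 170 under quantile normalisation, cyclic loess, median centring and dim values raised to the 5th percentile, and 140 of the 161 met the rule under all 4. The count was 161 with every transcript required to pass singly, which bears on only 1 member, AAEL001551. It was 165 without a minimum level, by the 4 genes which that level had kept out, and 152 with a minimum of 9. Leaving out 1 array gave 170 to 344 genes (262 without RED replicate 3 and 344 without T37 replicate 3), which always include the 161, since fewer arrays can only widen a gap. A gap of 0.5 gave 474 genes and a gap of 1.5 gave 59. Leaving out the replicates numbered 3 of both strains, added after the data were seen, gave 526. The median difference of the 161 stayed within 1.96 to 2.13 under the same rescalings and omissions. Of 409 differences of 37 named genes under alternatives, 0 changed sign. All 37 had every T37 array above every RED array, so leaving out arrays could not reverse a sign. By more than the gene's own spread between replicates 12 moved, 8 of these with dim values raised. An outlying array widens that spread. The difference of AAEL009543 was 2.10 in place of 2.96 without RED replicate 3 and was not among the 12. Genes called higher by limma numbered 312, and 5 to 524 without 1 array (9, 5 and 180 without T37 replicates 1, 2 and 3, and 34, 22 and 524 without RED replicates 1, 2 and 3). With the replicate block limma called 0 (1288 at an unadjusted p under 0.05), and without the replicates numbered 3 it called 1807. The numbers were not used to pair the arrays. After removal of strain means, arrays with the same number, 1, 2 and 3, correlated across strains at -0.25, -0.16 and -0.17. T37 replicates 1, 2 and 3 correlated at 0.42, 0.37 and 0.46 with RED replicates 2, 3 and 1. With RED replicates 3, 1 and 2 they correlated at -0.08, -0.43 and -0.22. Deviations of 3 arrays from their mean sum to 0, so mixed signs are partly forced. The cause of the changes in the limma counts was not tested. Settings with fewer arrays or with the replicate block also leave fewer degrees of freedom.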
